A study of Mus musculus with 2 samples.

Results

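R-loop peaks that hold both a gene start and a gene end were examined in primary neural stem/progenitor cells (NSPCs). A peak was a member when it contained at least 1 transcription start site (TSS) and at least 1 transcription end site (TES) of protein-coding genes, of the same gene or of neighbours, in the GENCODE M1 annotation of the mm9 genome. Of the 22132 R-loop peaks, 542 met this rule, which is 2.45% (95% Wilson interval, 2.25 to 2.66%, covering counting error only). Whole genes lay inside 359 of them, 66.2%, and the other 183, 33.8%, joined the end of 1 gene to the start of another without holding any gene in full. In all, 404 genes were wholly inside a peak, and 1075 genes had a TSS or TES in a member.

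NSPCs were cultured from the frontal brain of C57BL/6 mice at postnatal day 7, and all cells were exposed to 0.5 μM aphidicolin, a DNA polymerase inhibitor that slows replication, for 48 h. The labels do not mention this treatment, which is known from the methods alone. For DRIP-seq, DNA was digested with restriction enzymes, RNA:DNA hybrids were captured with the hybrid-binding antibody S9.6, and the DNA of the captured fragments was sequenced. The deposited list gives only the position of each peak, without strand, signal or read count. With 1 list there is no untreated group, no replicate error and no test of a difference between kinds of peaks. How many reads support a peak is unknown, and every comparison is a description. Among 13 marker genes of neural stem and progenitor cells, 7 had their TSS in a peak, among them Vim, Sox2, Nes, Msi1, Sox9 and Olig2, and the remaining markers of that list did not. Of all 22367 protein-coding genes, 3325, 14.9%, had their TSS in a peak. Apoa1 alone among 4 liver markers, 0 of 4 muscle markers and 0 of 4 lymphocyte markers did. With 4 genes each, these lists cannot be set apart from the share over all genes. None of these marker genes lay wholly inside a peak.

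An R-loop forms when nascent RNA pairs with its DNA template behind RNA polymerase and displaces the non-template strand. Sequence in which the non-template strand carries more G than C favours the hybrid, and R-loops are known to gather just downstream of promoters, where transcription begins, and past polyadenylation sites, where polymerase pauses before it terminates. In compact parts of the genome the terminator of a gene and the promoter of the next lie close together, so that a single stretch of hybrids can reach across both.

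The sequence between the genes is shown first for members that joined the end of a gene to the start of the next gene on the same strand. Each run is the complete gap between the TES of the upstream gene and the TSS of the downstream gene, printed 5′ to 3′ on the coding strand of both genes, and each lay wholly inside 1 peak and outside annotated exons. Capitals mark runs of at least 3 G, the feature that gives the non-template strand its G clusters.
Camta2-Spag7: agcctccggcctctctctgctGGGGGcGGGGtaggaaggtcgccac
Ttc36-Tmem25: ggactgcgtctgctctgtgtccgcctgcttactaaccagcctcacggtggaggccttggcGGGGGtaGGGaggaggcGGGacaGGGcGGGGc
Nrbp1-Krtcap3: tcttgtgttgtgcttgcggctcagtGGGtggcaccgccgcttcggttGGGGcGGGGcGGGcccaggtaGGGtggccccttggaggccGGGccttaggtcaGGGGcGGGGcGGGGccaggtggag
Slc12a9-Trip6: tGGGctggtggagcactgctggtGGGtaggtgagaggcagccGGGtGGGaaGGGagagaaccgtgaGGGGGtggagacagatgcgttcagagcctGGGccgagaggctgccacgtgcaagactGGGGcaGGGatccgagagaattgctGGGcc
Clic1-Ddah2: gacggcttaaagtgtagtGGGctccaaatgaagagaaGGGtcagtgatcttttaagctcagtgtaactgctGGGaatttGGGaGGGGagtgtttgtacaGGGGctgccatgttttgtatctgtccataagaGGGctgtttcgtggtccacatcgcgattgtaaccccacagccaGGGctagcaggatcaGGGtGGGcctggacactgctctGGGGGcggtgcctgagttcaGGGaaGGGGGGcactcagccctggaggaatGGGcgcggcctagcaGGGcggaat
Sec24c-Fut11: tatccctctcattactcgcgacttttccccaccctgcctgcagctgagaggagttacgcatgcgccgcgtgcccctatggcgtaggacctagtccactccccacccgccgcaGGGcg
The gap of 46 bp between Camta2 and Spag7 (chr11:70482919-70482964, minus strand) and that of 92 bp between Ttc36 and Tmem25 (chr9:44607391-44607482, minus strand) were among the 5 shortest gaps bridged. In the 124 bp between Nrbp1 and Krtcap3 (chr5:31553940-31554063, plus strand) 61 bases were G and 30 were C, with 9 runs of G. The 153 bp between Slc12a9 and Trip6 (chr5:137755633-137755785, minus strand) held 72 G and 28 C, and the 285 bp between Clic1 and Ddah2 (chr17:35195695-35195979, plus strand) held 105 G, 57 C and 15 runs of G. The 117 bp between Sec24c and Fut11 (chr14:21514073-21514189, plus strand) are shown because they run the other way, with 28 G and 47 C and 1 run of G. The last 4 gaps were chosen after their composition was seen. Of 35 bridged gaps of 30 to 300 bp without annotated exons, leaving out 1 chromosome that is not printed here, 26 had more G than C on the coding strand, 7 had more C than G, and 26 held at least 4 runs of G. No such count of unbridged gaps is given here. For same-strand neighbours less than 0.5 kb apart, the 1 kb past the TES was compared instead. It held more G than C in 68.6% of 70 bridged and 65.9% of 179 unbridged pairs, so an excess of G in that window was not particular to bridged pairs. At these gaps the window runs into the next gene, so whether the gaps themselves differ cannot be told from it.

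For peaks around a single whole gene, the window of 100 bp in which G most outnumbered C, read on the gene's coding strand, was located in the peak, again outside exons. Examples are shown for a cell cycle gene, an immediate early gene, a ribosomal protein gene, a chaperone gene and Strn4, which is among the longest whole genes, with the same capitals.
Ccnd2: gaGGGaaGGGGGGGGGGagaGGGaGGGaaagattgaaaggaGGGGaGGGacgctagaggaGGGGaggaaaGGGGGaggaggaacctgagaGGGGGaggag
Zfp36: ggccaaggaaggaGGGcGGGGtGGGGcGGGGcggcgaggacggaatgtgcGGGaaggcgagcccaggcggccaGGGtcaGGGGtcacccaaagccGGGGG
Rpl8: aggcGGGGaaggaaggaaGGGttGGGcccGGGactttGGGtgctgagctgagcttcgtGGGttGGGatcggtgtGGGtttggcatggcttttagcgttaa
Hspa8: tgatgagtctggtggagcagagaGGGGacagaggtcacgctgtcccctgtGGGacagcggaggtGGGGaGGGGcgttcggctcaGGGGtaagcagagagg
Strn4: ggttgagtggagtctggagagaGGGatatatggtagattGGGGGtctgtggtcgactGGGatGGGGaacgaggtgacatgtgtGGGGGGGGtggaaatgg
The windows of Ccnd2 (chr6:127101095-127101194, minus strand) and Hspa8 (chr9:40608416-40608515, plus strand) lay upstream of the TSS, with their centres at 78 and 601 bp from it. The Ccnd2 window is also inside the transcribed region of 9330179D12Rik. That of Rpl8 (chr15:76735121-76735220, plus strand) was intronic, and those of Zfp36 (chr7:29161436-29161535, minus strand) and Strn4 (chr7:17426346-17426445, plus strand) lay past the TES. In the Ccnd2 window 61 of 100 bases were G and 4 were C, and in the Strn4 window 51 were G and 6 were C. These windows were selected for their G content, so their skew is a description. Over 311 such windows, 117 were in an intron, 114 past the TES and 80 upstream of the TSS, and the median window held 46 G, 11 C and 5 runs of G. The bases searched in each place are not given here, so the split between places is not a rate.

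The 359 members with a whole gene were varied in what else they contained. A single whole gene was present in 318, 2 in 38, 3 in 2 and 4 in 1. No end of another protein-coding gene was found in 120 of them, and 111 of these held a single whole gene. The end of another protein-coding gene alone was found in 125, the start alone in 71, and both in 43. Of the 183 bridging members, 163 held 1 start and 1 end exactly. Nonoverlapping genes on the same strand were joined in 163 bridging peaks, overlapping genes on the same strand in 10, and overlapping genes on opposite strands in 25, with some peaks counted under several of these. Genes on opposite strands that do not overlap present either both their starts or both their ends to each other, and accordingly 0 bridging peaks fell there.

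**Figure D1:**
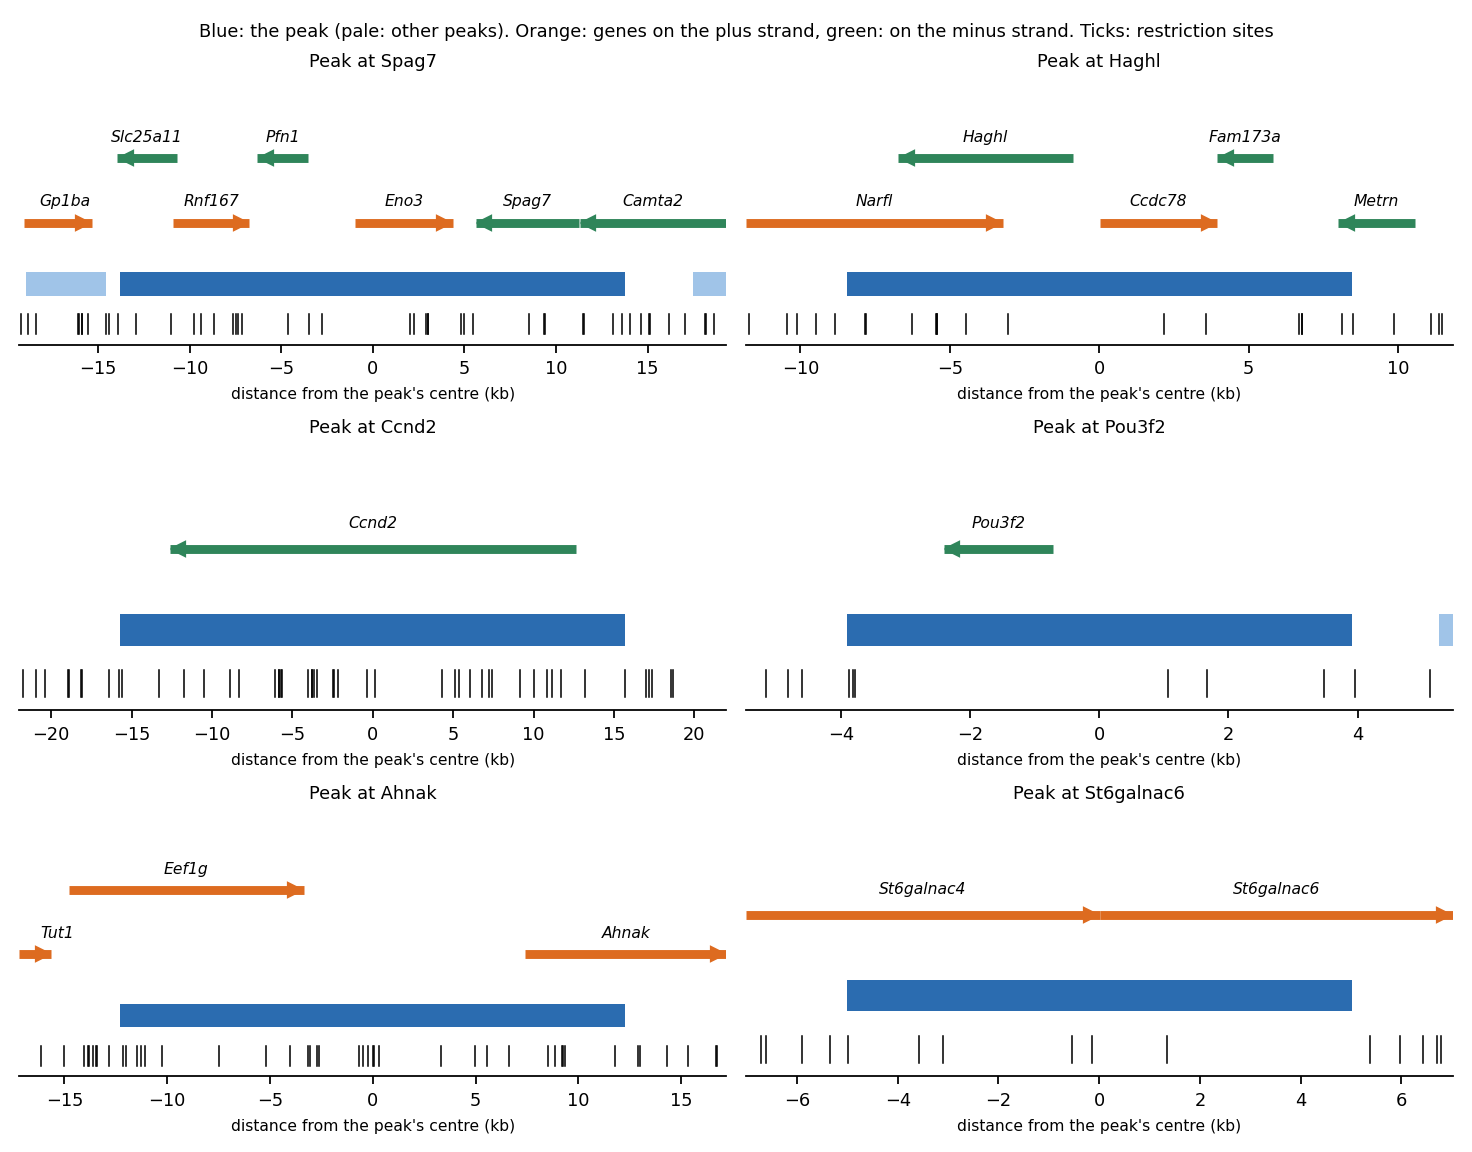
Maps of 6 members, with the distance from the centre of the peak in kb on the horizontal axis. The dark blue bar is the peak, pale blue bars are other peaks, arrows are protein-coding genes cut at the edge of the map (orange on the plus strand, green on the minus strand) and ticks are sites of the 5 restriction enzymes. The peaks at Spag7 and Haghl hold 4 and 3 whole genes, those at Ccnd2 and Pou3f2 hold 1 protein-coding gene each, and those at Ahnak and St6galnac6 bridge gaps of 10780 and 10 bp.

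The peak with the most whole genes spanned 27.6 kb of chromosome 11 (chr11:70457870-70485448). Inside it lay Rnf167, a ubiquitin ligase gene of 4.19 kb, Pfn1, which encodes the actin-binding protein profilin and measures 2.79 kb, Eno3, the gene of the muscle form of enolase, 5.31 kb, and Spag7, 5.65 kb. The start of Slc25a11 and the end of Camta2 were also inside. Rnf167 and Eno3 are on the plus strand and Pfn1 and Spag7 on the minus strand. Haghl, Ccdc78 and Fam173a were wholly within a peak of 16.9 kb on chromosome 17, together with the ends of Narfl and Metrn. The other peak with 3 whole gene entries, 34.0 kb on chromosome 15, counted Tob2, an antiproliferative gene, under 2 identifiers, beside Gm8444. Because the peaks carry no strand, the genes of such a peak that contribute the hybrids cannot be told apart. Among the 41 peaks with at least 2 whole genes, these were on both strands in 28 and on 1 strand in 13, and in 20 the whole genes overlapped each other.

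Members were wide, with a median of 6.91 kb (interquartile range, 4.29 to 10.2 kb) and a range from 0.608 to 42.1 kb. Whole-gene members had a median of 7.60 kb and bridging members 5.46 kb, compared with 2.33 kb for the 2333 peaks with a gene start only, 4.16 kb for the 1388 with a gene end only and 1.32 kb over all peaks. Width and the rule are coupled, since a wider peak has more room for both ends, so the greater width of members is a description. The 542 members summed to 4.42 Mb, 9.03% of all bases in peaks, and made up 33.8% of the 429 peaks of at least 10 kb. They were 18.9% of the 2875 peaks with a gene start and 28.1% of the 1930 peaks with a gene end. Protein-coding gene bodies made up a median of 78.7% of the bases of whole-gene members and 86.7% of those of bridging members.

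**Figure D2:**
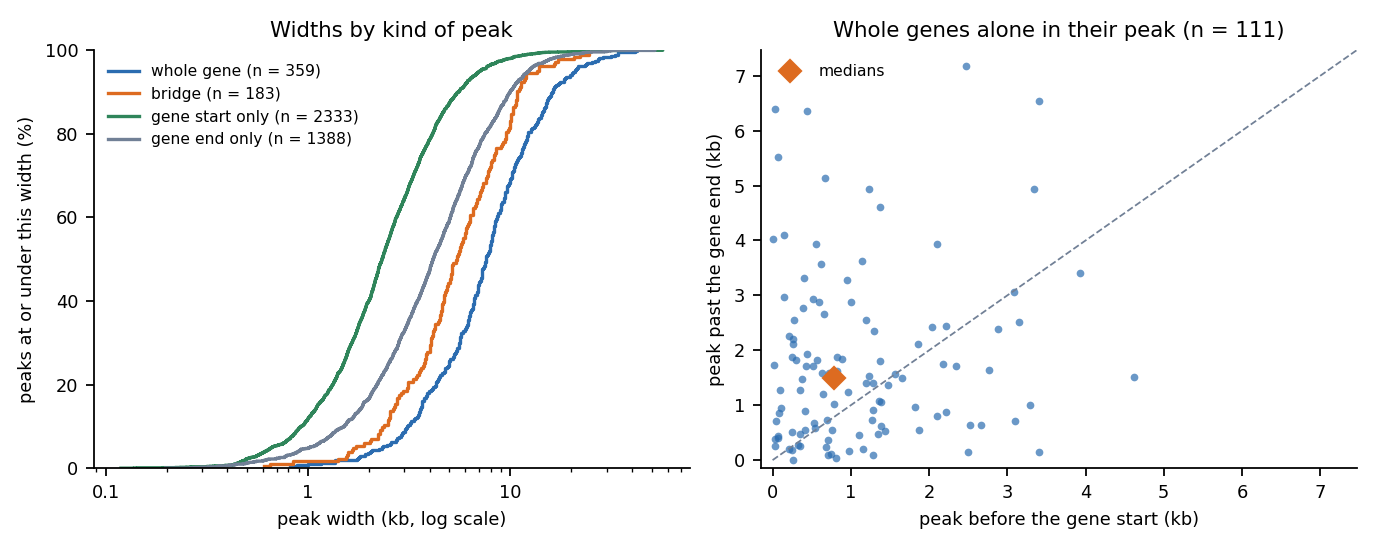
Left, cumulative share of peaks (%) at or under each width (kb, log scale) for whole-gene members, bridging members, peaks with a gene start only and peaks with a gene end only. Right, for the 111 whole genes whose peak held no end of another protein-coding gene, the distance (kb) the peak reached before the TSS against that past the TES, with the medians of 784 and 1495 bp as a diamond and the dashed line marking equal distances.

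The widest member, 42.1 kb (chr9:43877196-43919341), held Mfrp, a frizzled-related membrane protein gene, C1qtnf5, which shares its 3′ end with Mfrp, and the end of the deubiquitinase gene Usp2. The next was 41.3 kb around Strn4, a striatin family gene, and also held the start of the protein kinase gene Prkd2. Peaks of 34.2 kb around Ppp1r12c, a protein phosphatase 1 regulatory subunit gene, 34.0 kb around Tob2, 32.9 kb around Slc22a17 and Efs, and 31.4 kb around the cyclin D2 gene Ccnd2 came next. Tle2, a Groucho family corepressor gene, lay in 28.6 kb, the 4 genes around Spag7 in the 27.6 kb already described, Rfx5, a regulator of MHC class II genes, in 27.3 kb, and Dact3, which encodes a Wnt pathway antagonist, in 26.2 kb. Among these 10 widest members, the Ccnd2 peak alone held no end of any other protein-coding gene. At the other end of the range, a peak of 0.608 kb joined Tmc4 to Leng1 and a peak of 0.652 kb joined Abat to Gm9851.

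The median GC content of members was 52.8% (interquartile range, 51.0 to 54.9%), between that of peaks with a gene start only, 56.4%, and that of peaks with a gene end only, 50.0%. The observed over expected ratio of CpG, which is high in CpG islands, had a median of 0.351 in members, 0.657 in start-only peaks and 0.226 in end-only peaks. Both measures fall with width in peaks that contain a promoter, and the distance between the kinds depended on width. In peaks under 2 kb, the median GC content was 56.4% in 24 members, 60.1% in 934 start-only peaks and 48.6% in 231 end-only peaks, and the CpG ratio was 0.628, 0.766 and 0.228. In peaks of 5 to 10 kb, the median GC content was 52.9% in 225 members, 52.2% in 249 start-only peaks and 50.2% in 428 end-only peaks, and the CpG ratio was 0.355, 0.422 and 0.227. At least 4 runs of at least 3 G separated by 1 to 7 bases, the letter pattern of a potential G-quadruplex, were found on either strand in 87.8% of members, 76.2% of start-only peaks, 63.6% of end-only peaks and 38.0% of all peaks, a share that depends on width. The median density was 0.463 per kb in members, 0.671 per kb in start-only peaks and 0.237 per kb in end-only peaks.

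The DNA was cut at sites of 5 restriction enzymes before the hybrids were pulled down, so recovered fragments extend to the nearest cut. No site was present in 37 members, 6.83%, compared with 43.6% of start-only and 16.6% of end-only peaks. Among peaks of 2 to 5 kb these shares were 16.2, 30.5 and 14.7%, so that members and end-only peaks lay close together at that width. Of the members, 305 held at least 5 sites and the most was 51, in the Strn4 peak. A peak with many sites spans several fragments. Of the 37 members on a single fragment, 15 held a whole gene, and the peak covered a median of 83.3% of its fragment (25.2 to 98.4%). The peak around Zfp593, for instance, was 10.2 kb of a fragment of 10.5 kb, 97.8%, and that around the ribosomal protein gene Rpl36al was 3.06 kb of 3.16 kb. A site was found at most 100 bp away from 44.1% of member edges, 35.9% of start-only edges and 37.6% of end-only edges. The part of fragment length in these results was not tested.

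Of the 22367 protein-coding genes, 404, a background of 1.81%, lay wholly inside a peak. These genes were short, with a median of 3.06 kb (interquartile range, 1.81 to 5.21 kb) against 15.4 kb over all protein-coding genes, which follows in part from the rule, since a peak must be at least as wide as the gene. The share did not fall steadily with length. It was 2.33% of genes under 1 kb, 5.50% from 1 to 2 kb, 6.91% from 2 to 5 kb, 2.72% from 5 to 10 kb, 0.554% from 10 to 20 kb and 0.0820% from 20 to 50 kb, with 0 of 4841 genes of at least 50 kb. Many genes under 1 kb are olfactory receptor genes, of which none was in a peak in full. Without them the share was 3.53% under 1 kb, 7.22% from 1 to 2 kb and 7.12% from 2 to 5 kb. When only genes with their TSS in a peak were counted, the peak held the gene in full for 78.6% under 1 kb, 55.8% from 1 to 2 kb, 39.6% from 2 to 5 kb and 16.2% from 5 to 10 kb.

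**Figure D3:**
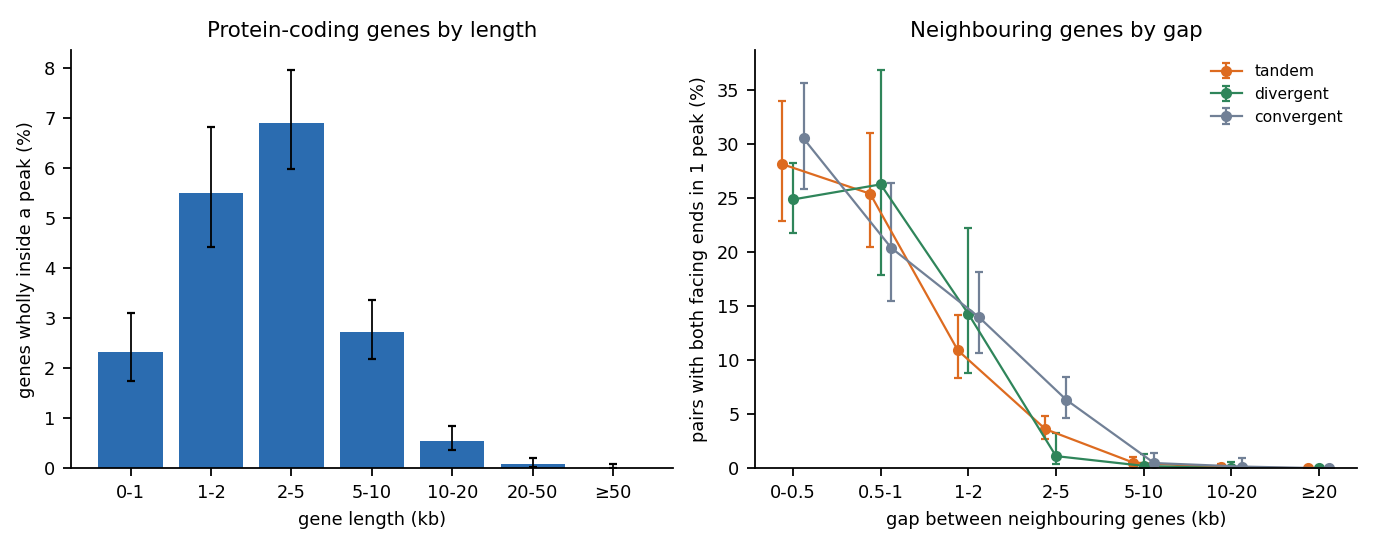
Left, share of protein-coding genes (%) wholly inside a peak by gene length (kb). Right, share of neighbouring gene pairs (%) whose facing ends lay in the same peak by the gap between them (kb), for genes on the same strand (tandem), facing starts (divergent) and facing ends (convergent). Bars (left) and points (right) give the share, and whiskers its 95% Wilson interval, which covers counting error only; shares peak at 6.91% for genes of 2 to 5 kb and fall below 1% in all 3 orientations from a gap of 5 kb.

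The longest gene inside a peak was Ccnd2, at 25.3 kb (chr6:127075797-127101066, minus strand, 5 exons). Cyclin D2 drives the passage through G1 and is well known in neural progenitors. Its peak began 3082 bp before the TSS and ended 3071 bp past the TES, and the gene was 80.4% of it. Strn4 measured 25.04 kb, Ppp1r12c 20.2 kb and Tle2 16.3 kb. Ppp2r1a, the scaffold subunit gene of protein phosphatase 2A, measured 20.6 kb and was 81.2% of its peak of 25.4 kb, with no end of another protein-coding gene in it. In total, 25 whole genes were longer than 10 kb.

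Several of the shorter genes need care. Of the 404 entries, 16 were shorter than 0.5 kb, 156 overlapped another protein-coding gene, and 12 bore a symbol that the annotation uses for several entries. The Sox4 entry counted as whole, for example, is a second identifier of 0.405 kb (ENSMUSG00000078309) nested in the main Sox4 gene, which encodes a neural progenitor transcription factor. The TES of the main gene lay 350 bp outside the peak. A single exon was annotated for 70 whole genes, 17.3%, compared with 12.8% of all protein-coding genes. Within length classes the order was the other way. Under 1 kb, 1.97% of single-exon and 4.55% of multi-exon genes were whole. The shares were 3.10 and 9.09% from 1 to 2 kb, and 3.31 and 7.51% from 2 to 5 kb. Without olfactory receptor genes, the shares were 3.22 and 4.74% under 1 kb and 4.74 and 9.86% from 1 to 2 kb. From 2 to 5 kb they were 3.32 and 7.77%.

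Peaks generally went further beyond the end of a whole gene than before its start. The median distance was 1138 bp before the TSS and 2350 bp past the TES, and the stretch past the TES was the longer in 266 of 404 genes and the shorter in 137. Neighbours in the same peak can add to either side. In the 111 whole genes whose peak held no end of another protein-coding gene, called alone here although noncoding genes may be present, the medians were 784 bp (interquartile range, 366.5 to 1457 bp) before the TSS and 1495 bp (597.5 to 2478.5 bp) past the TES, with the longer side past the TES in 68 and before the TSS in 42. The POU factor gene Pou3f2, which acts in cortical neurogenesis, ran against this, with 4625 bp before its TSS, the most of the 111, and 1505 bp past its TES. Hspa8, the gene of a constitutive chaperone, had 1237 bp before and 4930 bp after. Olig1, an oligodendrocyte lineage factor gene, had 41 and 714 bp.

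The whole genes were counted in 14 gene lists, which hold 52 of the 404. Cytoplasmic ribosomal protein genes were wholly inside a peak for 19 of 81, 23.5% (95% interval, 15.6 to 33.8%), and immediate early genes, which respond to growth signals within minutes, for 9 of 40, 22.5% (12.3 to 37.5%). Respiratory chain genes had 9 of 86, 10.5% (5.60 to 18.7%), and heat shock genes 5 of 68, 7.35% (3.18 to 16.1%), against the background of 1.81% of all genes. Most of these lists hold many short genes. Among genes under 5 kb, the counts were 16 of 64 for cytoplasmic ribosomal protein genes, 8 of 22 for immediate early genes, 9 of 28 for respiratory chain genes and 4 of 20 for heat shock genes, beside 297 of 5841, 5.08%, for all protein-coding genes of that length. Clustered histone genes, with a median length of 0.530 kb, had 1 of 67 inside, the linker histone gene Hist1h1e. Mitochondrial ribosomal protein genes had 2 of 76, Mrpl27 and Mrpl43. No olfactory receptor gene of 1113 and no keratin or keratin-associated gene of 97 was inside, and 0 of 4 metallothionein genes. A count of 0 allowed up to 0.344% of the olfactory receptor genes and 3.81% of the keratin genes by the Wilson interval.

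**Figure D4:**
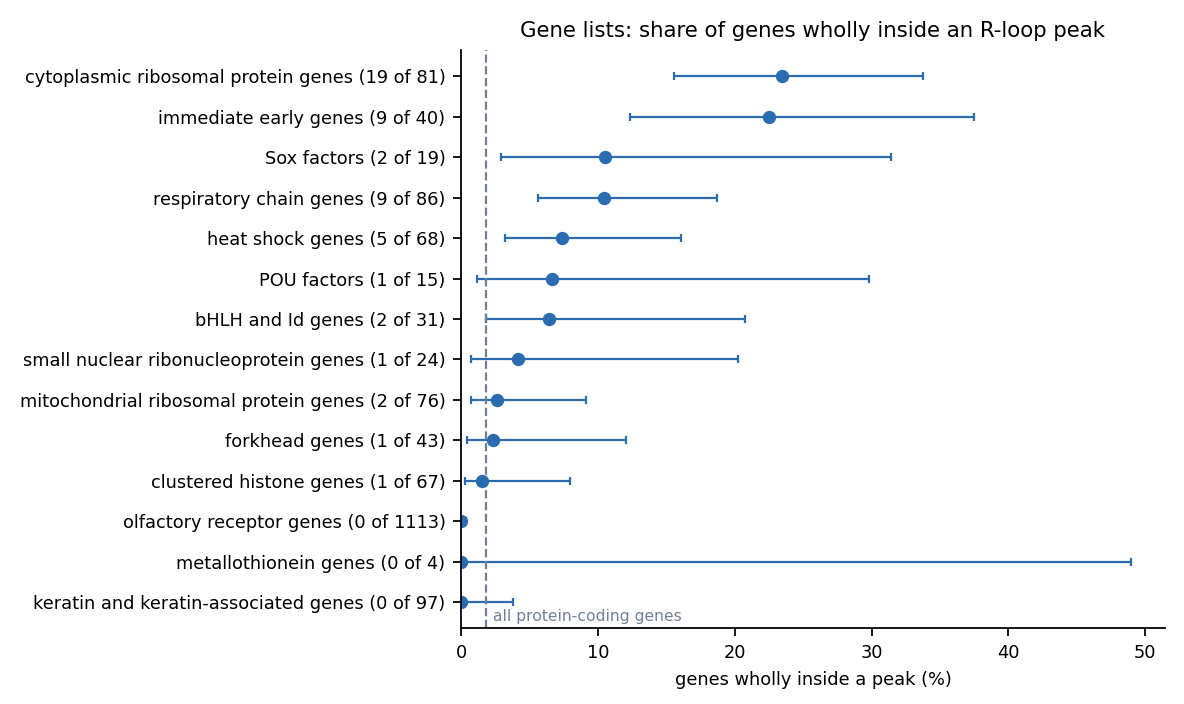
Share of genes (%) wholly inside an R-loop peak for 14 gene lists, with the counts in brackets. Points give the share and whiskers the 95% Wilson interval for counting error only; the dashed line is the 1.81% of all protein-coding genes, and the cytoplasmic ribosomal protein and immediate early genes are the highest, at 23.5 and 22.5%.

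Among the immediate early genes, the AP-1 genes Jun (3.19 kb), Junb (1.81 kb) and Fosl1 (8.24 kb) were whole. Junb was at the very edge of its peak, which began 8 bp before its TSS and went on for 12352 bp past its TES, across the peroxiredoxin gene Prdx2 and the start of Rnaseh2a. The others were the zinc finger factor gene Egr3, the MAP kinase phosphatase gene Dusp1, the mRNA decay factor gene Zfp36, and Ier2, Ier3 and Ier5l. Jun, Egr3, Dusp1, Ier2 and Ier5l were alone in their peaks, of 5.87, 7.99, 6.23, 2.90 and 7.60 kb. Over the 9 genes the median reach was 1280 bp before the TSS and 2397 bp past the TES, with the longer side past the TES in 7. Fos itself was missed by 60 bp at its TES. Zfp36l2 had its start in a bridging peak of 6.16 kb that also held the end of Thada.

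The 19 ribosomal protein genes included Rpl8, Rpl10a, Rpl12, Rpl23, Rpl23a, Rpl27a, Rpl34, Rpl36al, Rpl37, Rpl38, Rps6, Rps9, Rps10, Rps14, Rps19, Rps27, Rps28 and Rps29. Their peaks started close to the gene, at a median of 434 bp before the TSS, and ended at a median of 1878 bp past the TES. Rpl34 filled 93.1% of its peak of 3.83 kb, the highest share of the 19, as the peak began 257 bp before the TSS and ended 7 bp past the TES. In contrast, the peak of Rpl23 ran on for 9198 bp past the TES and that of Rpl23a for 4984 bp. Another 5 ribosomal protein genes had 1 end in a bridging peak. Among them, the ends of Rplp0, Rpl4 and Rps18 were joined to the starts of Gcn1l1, Snapc5 and B3galt4. Those peaks measured 3.85, 5.14 and 3.70 kb. The end of Aldh16a1 lay in a peak of 7.23 kb with the starts of Rpl13a and of another gene. This Rpl13a entry measured 10.86 kb, with 13 exons.

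The respiratory chain genes inside a peak were Ndufa2, Ndufa3 and Ndufb7 of complex I, Cox7a1, Cox8a and Cox8b of cytochrome c oxidase, Atp5g3 and Atp5h of ATP synthase, and Ndufa4l2, which was listed by its symbol. All 9 were under 5 kb, and 2 of them, Atp5g3 and Cox8a, were alone in their peak. Their median reach was 1227 bp before the TSS and 2435 bp past the TES, and the longer side was past the TES in 8. The heat shock genes were Hspa8, Hsp90ab1, Hspb6, Hspb9 and Dnajb9. For Hsp90ab1, which encodes a cytosolic chaperone and measures 5.50 kb, the peak of 9.68 kb reached 2157 bp before the TSS and 2029 bp past the TES.

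The lists of developmental regulators are small, so each share rests on 1 or 2 genes, beside the background of 1.81% of all protein-coding genes. The POU list had 1 of 15, 6.67% (95% interval, 1.19 to 29.8%), Pou3f2, and no other gene of that list had either end in a peak. The Sox list had 2 of 19, 10.5% (2.94 to 31.4%), namely Sox12, of 4.44 kb in a peak of 8.41 kb, and the short Sox4 entry. Sox11, a single-exon gene of neuronal differentiation, was missed because its TES lay 90 bp outside. The bHLH list had 2 of 31, 6.45% (1.79 to 20.7%), Hes7, which encodes a Notch pathway repressor, and Olig1. The forkhead list had 1 of 43, 2.33% (0.412 to 12.1%). Snrpd2 was the only whole gene among 24 small nuclear ribonucleoprotein genes.

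Noncoding genes also lay inside members. Of 1552 annotated snoRNA genes, whose RNAs guide the modification of ribosomal RNA, 30 were wholly inside 15 members and 84 were wholly inside other peaks. Beside them, 404 of 22367 protein-coding genes, 1.81%, lay wholly inside a peak. Protein-coding genes have a median of 15.4 kb, and a short snoRNA gene fits in many more peaks. The 1.81% is therefore no background for snoRNA genes. No share for genes of like length is given for the noncoding counts here. Of the 30 snoRNA genes, 29 were within a protein-coding gene, a share that is not given here for snoRNA genes elsewhere. For 21 of the 30 the host gene was itself whole in the peak. Nop56, which encodes a core protein of box C/D snoRNPs, lay in a peak of 8.71 kb with its 4 snoRNA genes, and Eif4a1, Hspa8 and Rpl23a had 3 each. Of 1577 genes annotated as miRNA, 13 were inside 11 members and 80 inside other peaks. Members also held 9 of 1273 lincRNA genes, 15 of 2572 processed transcripts and 3 of 5201 pseudogenes in full. Mir25, Mir93 and Mir106b, a cluster in an intron of the replication helicase gene Mcm7, lay together in a peak of 8.13 kb that held Cops6 in full and the end of Mcm7.

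Neighbouring genes on the same strand, in which the end of the upstream gene faces the start of the downstream gene, formed 10718 pairs. Both facing ends lay in 1 peak for 239 pairs, a background of 2.23%. The share fell with the gap between the genes, from 28.1% of 249 pairs closer than 0.5 kb to 25.4% from 0.5 to 1 kb, 10.9% from 1 to 2 kb, 3.62% from 2 to 5 kb, 0.539% from 5 to 10 kb and 0 of 5181 pairs at 20 kb or more. Divergent pairs, in which 2 starts face each other, had 24.9% below 0.5 kb and 26.3% from 0.5 to 1 kb, and convergent pairs, in which 2 ends do, had 30.5 and 20.4%. These intervals overlapped, as 28.1% had an interval of 22.9 to 34.0%, 24.9% of 21.8 to 28.2% and 30.5% of 25.9 to 35.6%. From 2 to 5 kb the convergent share was 6.32% (4.67 to 8.49%) and the divergent share 1.13% (0.386 to 3.27%), with the tandem share between them. When both facing ends of a tandem pair lay in a peak, it was the same peak in 70 of 71 pairs below 0.5 kb, in 49 of 50 from 1 to 2 kb and in 44 of 76 from 2 to 5 kb.

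The 239 bridged tandem gaps had a median of 788 bp (interquartile range, 417 to 1813.5 bp), and 144 of them held no restriction site. Some of the bridged pairs were separate entries that share a symbol, and they were counted as neighbours. The peaks covered a median of 2533 bp of the upstream gene and 1947 bp of the downstream gene, with the longer part in the upstream gene for 126 pairs and in the downstream gene for 113. These parts were a median of 24.4% of the length of the upstream gene and 27.2% of that of the downstream gene. Neither gene was whole in 154 pairs, the upstream gene alone in 27, the downstream gene alone in 49 and both in 9. In the 151 pairs in peaks without any whole gene, the covered part was longer in the upstream gene for 88 and in the downstream gene for 63.

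The longest gap bridged was 13169 bp, between Rfx5 and Pi4kb, a phosphatidylinositol kinase gene, in the peak of 27.3 kb on chromosome 3 that also held Rfx5 in full. The gap had a GC content of 44.1% and 20 restriction sites. The next longest was 10780 bp from Eef1g, a translation elongation factor gene, to Ahnak, which encodes a giant scaffold protein, in a peak of 24.6 kb on chromosome 19 that covered 8924 bp of Eef1g and 4860 bp of Ahnak. Hinfp, a regulator of histone H4 transcription, was joined to the sterol transporter gene Abcg4 over 7057 bp, Zfp414 to Pram1 over 6276 bp and Deb1 to Nktr over 6247 bp. In these 5 peaks the gap made up between 43.9 and 59.8% of the width, with the largest share between Zfp414 and Pram1.

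At the other extreme, the sialyltransferase genes St6galnac4 and St6galnac6 lay 10 bp apart in a peak of 10.0 kb, which covered 5031 bp of the former and 4991 bp of the latter. Taf6l and Tmem179b were 26 bp apart in a peak of 2.96 kb, and Usp3 and Fbxl22 43 bp apart in a peak of 15.9 kb. The 46 bp from Camta2 to Spag7, printed above, lay in the peak with 4 whole genes. The 92 bp from Ttc36 to Tmem25 lay in a peak of 3.90 kb that covered 3539 bp of Ttc36, whose TSS was missed by 13 bp, and 266 bp of Tmem25. With no strand in the list, a single R-loop over both genes and several R-loops side by side cannot be told apart.

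In 25 bridging peaks, the end of a gene lay together with the start of a gene that overlaps it on the opposite strand. The widest was a peak of 24.7 kb (chr7:4641014-4665715) with the start of Brsk1, a brain kinase gene, and the end of Tmem150b. A peak of 13.9 kb on chromosome 2 held the start of Arfgap2 and the ends of Pacsin3 and 1110051M20Rik, and another of 13.9 kb on chromosome 10 held the start of Tmem194 and the ends of Stat6, a cytokine signalling factor gene, and Nab2, which encodes an Egr corepressor. In 11 of the 25 peaks of this kind, no other type of pair was present. Overlapping genes on the same strand were joined in 10 bridging peaks, the widest of which, 17.2 kb, ran from the end of Ctsd, a lysosomal protease gene, to the start of 6330512M04Rik.

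GC skew, the difference of G and C over their sum on the coding strand, is a property of the reference sequence that the rule did not use. In the 1 kb past the TES, genes wholly inside a peak had a mean skew of 0.0487 ± 0.0989 (SD, n = 404), compared with 0.0253 in 1489 genes with only their TES in a peak, 0.0182 in genes with only their TSS in a peak and 0.00492 in genes with neither end in a peak. In the 1 kb after the TSS, it was 0.0518 ± 0.116 (SD, n = 404) for whole genes, 0.0656 for 2367 genes with only their TSS in a peak and 0.0279 for genes with neither. Whole genes are short, and the order of the means varied with length. After the TSS, whole genes and genes with only their TSS in a peak had 0.0176 and 0.0352 at 1 to 2 kb, 0.0632 and 0.0444 at 2 to 5 kb, and 0.0622 and 0.0645 at 5 to 10 kb. Past the TES, whole genes and genes with only their TES in a peak had 0.0499 and 0.0481 at 1 to 2 kb, 0.0518 and 0.0123 at 2 to 5 kb, and 0.0352 and 0.0304 at 5 to 10 kb. At 1 to 2 kb these groups held 77 whole genes, 60 genes with only the TSS and 19 with only the TES in a peak. The spread among genes exceeded these differences between means, neighbouring genes share sequence, genes are not replicates, and in genes under 1 kb the window after the TSS runs beyond the gene.

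**Figure D5:**
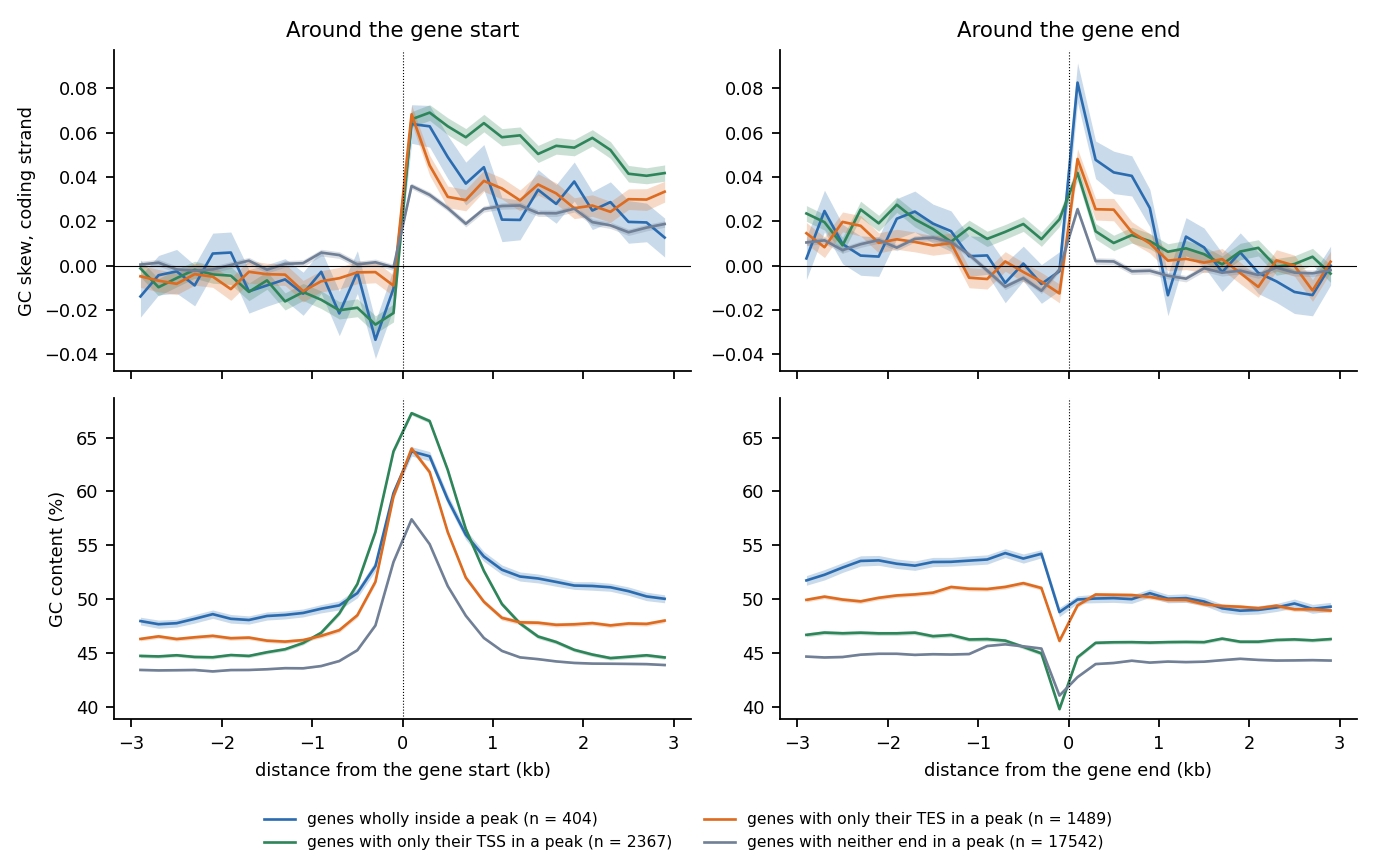
Mean GC skew on the coding strand (top) and GC content (%, bottom) in bins of 200 bp up to 3 kb on either side of the gene start (left) and gene end (right), for genes wholly inside a peak, with only the TSS, with only the TES or with neither end in a peak. Shading is the SEM over genes. In the first bin past the gene end, whole genes reach a skew of 0.0826, above the 0.0481 of genes with only their TES in a peak.

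In bins of 200 bp, the skew of whole genes was higher just after both ends of the gene than just before them. It went from -0.0103 in the last bin before the TSS to 0.0639 in the first bin after it, and from -0.00245 in the last bin before the TES to 0.0826 in the first bin past it, the highest of the 4 gene groups there. A rise at both ends was present in all 4 gene groups. In the first bin after the TSS, whole genes were not the highest. Genes with only their TSS in a peak had 0.0660 there and genes with only their TES in a peak 0.0683. In whole genes, the bin centred 1100 bp past the TES had -0.0133, between bins at 900 and 1300 bp with 0.0260 and 0.0131. GC content at the start of whole genes was 63.7% in the first bin, lower than the 67.3% of genes with only their TSS in a peak and above the 57.4% of genes with neither end. Past the TES it was 50.0%, compared with 49.4% for genes with only their TES in a peak and 42.8% for genes with neither.

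For the upstream genes of the 239 bridged tandem pairs, the skew in the 1 kb past the TES was 0.0418 ± 0.0978 (SD, n = 239), against 0.00925 for 10478 pairs that were not bridged. Unbridged pairs are mostly far apart. At gaps under 1 kb the window of 1 kb enters the next gene. Under 0.5 kb the means were 0.0484 for 70 bridged and 0.0317 for 179 unbridged pairs, and at 0.5 to 1 kb 0.0493 and 0.0314. They were 0.0277 and 0.0134 at 1 to 2 kb and 0.0348 and 0.0181 at 2 to 5 kb. After the TSS of the downstream gene, bridged and unbridged pairs had 0.0399 and 0.0295. At matched gaps these means were 0.0320 and 0.0306 under 0.5 kb, 0.0571 and 0.0360 at 0.5 to 1 kb, 0.0334 and 0.0353 at 1 to 2 kb and 0.0373 and 0.0427 at 2 to 5 kb, so the direction was not the same at every gap. The polyadenylation signal, searched as AATAAA or ATTAAA on the coding strand in the last 40 bp of the gene, was found in 74.9% of the upstream genes of bridged pairs and 68.3% of whole genes, compared with 64.9% of all protein-coding genes, 74.2% of genes with only their TSS in a peak and 72.2% of genes with only their TES in a peak.

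The members were unevenly spread over the chromosomes. Chromosome 7 held 88, with 53 whole-gene and 35 bridging peaks, chromosome 11 held 54, chromosome 17 held 48 and chromosome 19 held 38. Their share of all peaks was highest on chromosome 19, at 5.85%, followed by 5.399% on chromosome 7 and 4.71% on chromosome 17, and genes were whole most often on chromosome 19, at 4.14% (95% interval, 2.92 to 5.85%). Chromosome 13 had 10 members, each with a whole gene. On chromosome X, 0 of 932 genes lay wholly inside a peak, which allows a share of up to 0.410%, but 5 bridging peaks were found, namely Pim2 to Slc35a2 and Gpr173 to Tspyl2, each 6.85 kb wide, Gripap1 to Kcnd1 with 5.04 kb, Slc10a3 to Ubl4 with 2.28 kb, and Renbp to Naa10 with 1.89 kb. The TSS lay in a peak for 5.26% of genes on this chromosome, against 19.3% on chromosome 19. Members tended to lie near other peaks, with another peak within 10 kb of 69.7% of them, as for 69.8% of end-only and 50.2% of start-only peaks.

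The rule depends on single base positions, and some genes fell close to its limit. In 36 genes with 1 end in a peak the other end lay at most 100 bp outside that peak, 17 at the TSS and 19 at the TES. G0s2, a cell cycle and lipolysis regulator, was missed by 1 bp at its TES, and the glycolytic gene Tpi1 by 21 bp at its TSS. On the other side of the limit, 38 whole genes had an end at most 100 bp inside the peak. AI413582 and Higd2a, which encodes a mitochondrial membrane protein, ended on the last base, Rpl34 was inside by 7 bp and Junb by 8 bp.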

How the data were processed

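DRIP DNA of NSPCs was sequenced, and per the study's methods the authors trimmed reads with Trim Galore 0.6.6, aligned them to mm9, dropped duplicate reads and used a peak caller based on a Hidden Markov Model, with 3 biological replicates, each library pooling 3 DRIP reactions. They deposited 1 list of peak positions in base pairs, with no score, and how the replicates were combined is not given in the sources used here. The input library was not analysed here. The list does not give sequencing depth.

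Peak positions were compared with the GENCODE M1 annotation of mm9 (22367 protein-coding genes on chromosomes 1 to 19, X and Y). TSS and TES were the ends of the gene entry. A gene was whole when both lay in the same peak, and neighbours were adjacent, nonoverlapping genes. Intervals are 95% Wilson intervals. Classification was checked on 300 made-up peaks, all of which were classed as made. No statistical test was run, since there is 1 list. Alternatives were transcript ends, other biotypes, other peak limits, overlapping genes, autosomes and skew windows. Alternatives with genes of at least 0.5 kb and genes without any overlap were chosen after seeing the data. The members and the 14 gene lists were chosen with earlier results of these data known. Genes named are those of the 10 widest members, the 5 with the most whole genes (the wider first among equals), the 5 longest whole genes, the 5 longest and 5 shortest tandem gaps, the 3 widest bridges on opposite strands, list members, Pou3f2, Sox11 and Sox4. Other genes named, such as those of printed sequences, single fragments, noncoding hosts, chromosome X and the limits of the rule, were chosen after their values were seen. Some genes are not reported here by name. Python 3.11.15, numpy 2.4.6, scipy 1.17.1 and matplotlib 3.10.9 were used.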

Additional observations from a re-analysis of the deposited data

How the results depend on the processing

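Of 63 alternative values for 10 results, 49 stayed within 1.5 times the count or within the interval of the value and 14 moved beyond it. Counts, widths and shares cannot change sign, and the skew means stayed positive in each window. Counting every gene biotype gave 880 peaks with a gene start and a gene end, 657 with a whole gene, 812 whole genes, a median width of 5.42 kb, a median GC content of 52.4% and 12.2% of peaks without a restriction site. Counting the ends of every protein-coding transcript gave 586 peaks with a whole gene, 671 whole genes and a median width of 6.33 kb, and 540 of the 542 members were among its 803. Genes that overlap no other protein-coding gene left 230 peaks with a whole gene and 248 whole genes. Merging peaks closer than 1 kb gave a median width of 7.59 kb. The skew after the start of whole genes was 0.0398 over 2 kb, and that past the end of the upstream gene of bridged pairs was 0.0570 over 0.5 kb. Widening peaks by 100 bp on each side gave 589 members and narrowing them gave 509. The list holds no depth, so how far a peak's edge depends on sequencing could not be examined.

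No paired analysis was possible because there is 1 peak list and no result comes from a test.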
